A study of Mus musculus with 6 samples.

Results

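The 8 genes described here are the mouse PHF11 cluster (Phf11a, Phf11b, Phf11c and Phf11d) and a group of genes for nuclear body proteins (Sp100, Sp110, Sp140 and Pml). They were picked by gene symbol from the 78298 genes of the deposited count table, and Phf11d had been singled out because it was much higher with AQP1. The difference between the groups in these 8 genes is therefore given as a description. They were part of the fit across all genes and their calls are counted, but no p-value is given for them.

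The cells were RENCA, a line established from a renal adenocarcinoma of a BALB/c mouse. One group (oe-AQP1) received a lentivirus with the mouse Aqp1 coding sequence, and the control group (oe-NC) received the empty vector in the same way. Both vectors carried a puromycin resistance cassette, and both groups went through 14 days of selection in puromycin at 2 μg/mL, so that the sequenced cells of both groups had been transduced and selected. Total RNA from 3 samples of each group, labelled 2 weeks and all listed as batch 1, was sequenced as paired-end Illumina libraries. There was no untransduced group, and Aqp1 was expressed from a vector in selected cells, which the labels call clones. An effect of the insert's RNA, its sites of integration or differences between clones cannot be told apart from one of the AQP1 protein. The design text calls the 3 samples of a group biological replicates and says no more about their cultures, so the p-values measure the spread between these samples, which may be technical.

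PML nuclear bodies are small spherical structures in the nucleus that are built on the PML protein. PML is modified by the small protein SUMO and holds partners that bind SUMO, among them SP100 and DAXX, and the bodies are known for restricting the genomes of DNA viruses. PML and SP100 are textbook interferon-induced genes. SP100, SP110 and SP140 form a family of chromatin-binding proteins with a shared N-terminal HSR domain and a DNA-binding SAND domain, and mouse Sp140 is known as a repressor of the type I interferon response in macrophages. PHF11 proteins carry a PHD-like zinc finger. Mice have several copies of this gene side by side, where humans have a single gene that was studied for its link to atopy and to cytokine expression in T cells.

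The 6 libraries held 18385714 to 21920899 expected counts (estimated reads per gene, which need not be whole numbers). The Aqp1 counts matched the group label in every sample. Aqp1, the water channel, had 7713, 8545 and 7838 counts in oe-AQP1 and 41, 25 and 45 counts in oe-NC. Of 11 renal epithelial markers, 10 reached 10 counts in at least 1 sample, with Pax8, Krt8, Krt18 and Cdh16 well counted and Epcam at 0 throughout. Their summed level was 852 to 884 CPM (counts scaled to a common library size) in oe-AQP1 and 1040 to 1150 CPM in oe-NC. The 9 macrophage markers summed to 59.1 to 62.3 CPM in oe-AQP1 and 69.3 to 71.3 CPM in oe-NC, of which Cd68 (576 to 777 counts), Lyz2 (234 to 361), Cd14 (229 to 269) and Csf1r (56 to 202) were counted in every sample, while Adgre1 had 0 counts and Ptprc at most 3 per sample. Csf1r (log2 fold change -1.51, limma-voom FDR = 1.306e-05) and Lyz2 (-0.52, limma-voom FDR = 2.728e-04) fell, and their part in the results was not tested. The 9 lymphocyte markers summed to 0.819 to 1.26 CPM in oe-AQP1 and 1.15 to 1.55 CPM in oe-NC, and the 5 endothelial markers to 1.01 to 1.73 CPM and 0.93 to 1.45 CPM. The library oe-NC 1 stood apart. Its counts differed from those of the other oe-NC libraries by a chi-square of 9.81 to 11.38 per gene, against 1.71 to 2.04 for the other 4 pairs of replicates, so results are given without it where that changes them.

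The 8 genes lie at 3 loci of the GRCm39 assembly. The 4 Phf11 genes span 118470 bases of chromosome 14, all on the minus strand, in the order Phf11a (ENSMUSG00000044703, chr14:59514361-59534973), Phf11b (ENSMUSG00000091649, chr14:59558413-59578810), Phf11d (ENSMUSG00000068245, chr14:59584654-59602945) and Phf11c (ENSMUSG00000091144, chr14:59618282-59632830). The gaps between them are 23439, 5843 and 15336 bases. Sp110 (ENSMUSG00000070034, chr1:85498456-85526604, minus strand), Sp140 (ENSMUSG00000070031, chr1:85528099-85572758, plus strand) and Sp100 (ENSMUSG00000026222, chr1:85577709-85637719, plus strand) span 139264 bases of chromosome 1. Sp110 and Sp140 point away from each other across 1494 bases, and Sp140 and Sp100 are 4950 bases apart. Pml (ENSMUSG00000036986, chr9:58124456-58157169, minus strand) lies alone on chromosome 9. The deposited domain annotation lists the zf-HC5HC2H zinc finger in all 4 Phf11 genes, HSR and SAND domains in the 3 Sp genes, a bromodomain (a reader of acetylated lysine) in Sp100 and Sp140, and a B-box in Pml.

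The coding sequences show how near the copies are to each other. Phf11a and Phf11b, with 293 and 276 codons, were identical at 97.1% of aligned bases. Phf11d (337 codons) was 89.1% and 88.5% identical to them, and Phf11c (339 codons) 83.9% to 84.8% identical to the other 3. Sp100 (668 codons), Sp110 (449 codons) and Sp140 (534 codons) shared 48.1% to 54.0% of aligned bases with one another, so they are distant relatives by comparison. Pml has 898 codons in its longest coding transcript.

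The stretches before the starts of 6 of the genes are shown, and whether they have a part in the levels was not tested. Sp140 and Pml, whose windows held none of the motifs described below, are not printed. Each line gives 110 bases before the RefSeq transcript start and 30 bases from it, 5′ to 3′ on the gene's own strand, taken from the RefSeq promoter table for GRCm38.p6. Capitals mark a pair of GAAA motifs or, read on the other strand, TTTC motifs. All 10 RefSeq windows of the 8 genes were found once each on their GRCm39 chromosome, and the printed bases lie at chr14:59534942-59535081 (Phf11a), chr14:59578750-59578889 (Phf11b), chr14:59602910-59603049 (Phf11d), chr14:59630932-59631071 (Phf11c), chr1:85577599-85577738 (Sp100) and chr1:85526502-85526641 (Sp110).
Phf11a: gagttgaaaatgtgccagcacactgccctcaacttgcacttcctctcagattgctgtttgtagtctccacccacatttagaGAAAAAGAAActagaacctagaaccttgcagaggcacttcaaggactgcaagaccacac
Phf11b: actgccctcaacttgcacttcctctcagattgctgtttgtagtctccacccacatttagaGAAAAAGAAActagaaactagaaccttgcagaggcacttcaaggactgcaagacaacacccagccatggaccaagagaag
Phf11d: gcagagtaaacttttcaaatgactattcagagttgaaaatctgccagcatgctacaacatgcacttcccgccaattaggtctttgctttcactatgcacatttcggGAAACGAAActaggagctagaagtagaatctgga
Phf11c: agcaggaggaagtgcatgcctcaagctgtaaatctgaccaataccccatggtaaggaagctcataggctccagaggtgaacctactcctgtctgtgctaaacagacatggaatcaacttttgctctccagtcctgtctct
Sp100: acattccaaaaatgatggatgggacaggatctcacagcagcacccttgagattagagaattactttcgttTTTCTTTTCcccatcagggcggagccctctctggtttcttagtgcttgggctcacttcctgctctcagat
Sp110: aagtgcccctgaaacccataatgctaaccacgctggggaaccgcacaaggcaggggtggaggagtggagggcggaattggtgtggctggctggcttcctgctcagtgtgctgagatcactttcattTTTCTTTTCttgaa

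Paired GAAA motifs are the core of the interferon-stimulated response element, which factors of the IRF family bind. The windows, 250 bases before the start and 50 after it, were searched on both strands for GAAANNGAAA, for GAAANGAAA and for TTCNNNGAA, the core of the gamma-activated site. The second spelling was added after these windows had been read. It cannot match where the first does on the same bases. Phf11a and Phf11b both held GAAAAAGAAA, at bases -29 to -20 and -50 to -41 from their listed starts, inside stretches that are nearly the same in both genes. Phf11d held GAAACGAAA at bases -4 to 5. Sp100 held TTTCTTTTC at bases -40 to -32, and Sp110 held the same letters at bases 17 to 25 of the window near its annotated gene start. The other window of Sp110, at chr1:85531563-85531862, held no match and is not printed. No match was found in the windows of Phf11c, Sp140 and Pml, and TTCNNNGAA was found in 0 of the 8 genes. The RefSeq starts of Phf11c and Sp140 lie inside the longer GENCODE genes, so their windows do not cover the annotated gene starts.

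GAAANNGAAA was present in 2 of the 8 genes (25.0%), in 3.99% of all 27025 genes with a window and in 23.3% of the 347 genes with a window that were higher in oe-AQP1 past both thresholds given below. GAAANGAAA was present in 3 of the 8 genes, in 3.70% of all genes and in 9.51% of the higher genes. Since this spelling was added after the windows of the 8 genes had been read, nothing is read from its count among them. TTCNNNGAA was present in 9.55% of all genes and in 45 of the 347 higher genes. These are counts of letters in windows and not of bound sites.

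Counts were compared between the groups with limma-voom across the 15522 genes that passed a filter on low counts, and all 8 genes passed it. A gene was called when its Benjamini-Hochberg adjusted p (FDR) was under 0.05 and its log2 fold change was above 1 or below -1. All 8 genes were higher in every oe-AQP1 sample than in any oe-NC sample and were called higher, where 4.39% of all genes tested were called higher, 0.844% were called lower and 5.23% were called in either direction. The FDR alone was passed in either direction by 32.5% of all genes. Groups that did not overlap in CPM, with oe-AQP1 higher, were seen in 23.5% of all genes. The median log2 fold change was 2.763 for the 8 genes and 0.002 for all genes tested. Because the genes were picked with this comparison known, nothing is read from these counts. In bulk RNA, more cells that express a gene and more of its RNA per cell cannot be told apart.

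**Figure D1:**
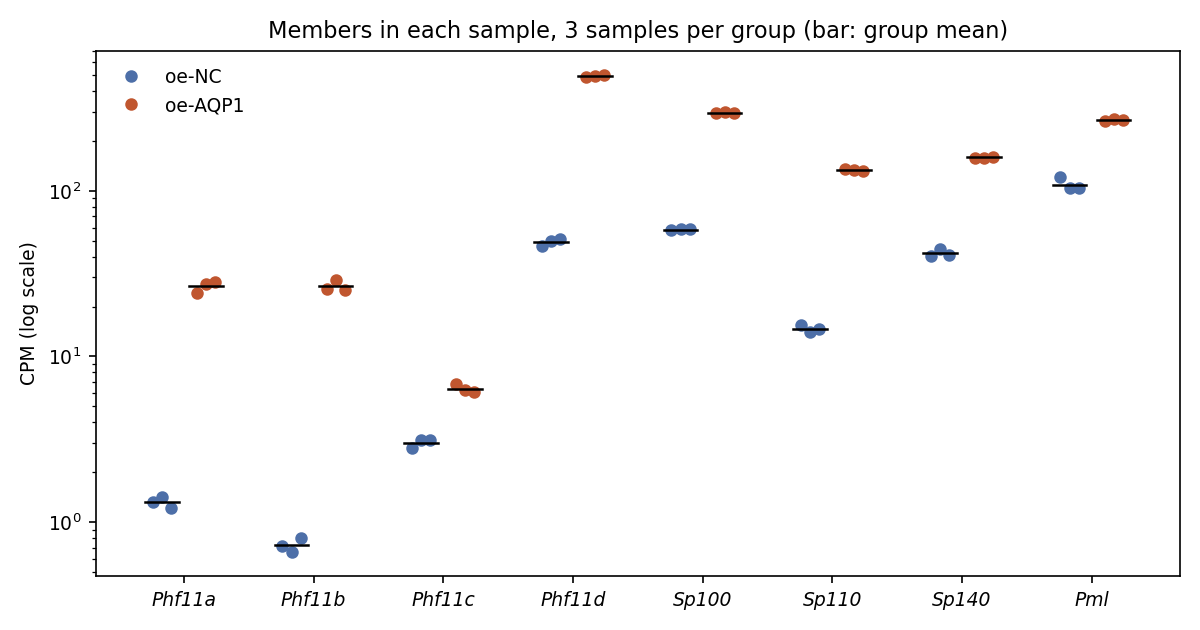
CPM of the 8 genes in each of the 6 samples on a log axis, with a bar at each group mean. The oe-AQP1 samples (red) lie above the oe-NC samples (blue) in every gene, the distance is widest for Phf11b and narrowest for Phf11c, and the Pml point of oe-NC 1 sits above its group.

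Phf11d was the copy that had been singled out. It had 9592, 10934 and 10348 counts in oe-AQP1 and 910, 915 and 1092 counts in oe-NC. The groups were far apart, and the samples within each were close. The mean level was 495 ± 9.25 CPM (SD, n = 3) in oe-AQP1 and 49.2 ± 2.54 CPM (n = 3) in oe-NC, a ratio of 10.1 and a log2 fold change of 3.33 (SE 0.05). This was rank 94 among all genes tested.

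Phf11b and Phf11a were low in oe-NC and differed most between the groups. Phf11b had 506, 640 and 519 counts in oe-AQP1 and 14, 12 and 17 counts in oe-NC. Every oe-AQP1 sample was far above every control sample, and the mean levels of 26.7 ± 2.14 CPM and 0.722 ± 0.0709 CPM (n = 3 each) gave a ratio of 36.9 and a log2 fold change of 5.15 (SE 0.24), rank 19 of all genes tested. Phf11a had 476, 600 and 576 counts in oe-AQP1 and 26 counts in each oe-NC sample. Its means of 26.5 ± 2.10 CPM and 1.32 ± 0.101 CPM gave a log2 fold change of 4.30 (SE 0.19), rank 41. These are the 2 copies most alike in sequence.

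Phf11c differed least of the 4 copies. It had 134, 137 and 126 counts in oe-AQP1 and 55, 57 and 67 counts in oe-NC. The groups did not overlap, with means of 6.38 ± 0.349 CPM and 3.02 ± 0.190 CPM, a ratio of 2.11 and a log2 fold change of 1.07 (SE 0.13). It lay close to the fold threshold of 1, and its log2 fold change was 1.02 without oe-NC 1.

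Sp110, a nuclear body protein whose human gene is mutated in an immunodeficiency with hepatic veno-occlusive disease, differed most of the Sp genes. It had 2696, 2927 and 2704 counts in oe-AQP1 and 304, 255 and 314 counts in oe-NC. No control sample came near the oe-AQP1 samples. The means of 133.7 ± 2.47 CPM and 14.7 ± 0.768 CPM gave a ratio of 9.08 and a log2 fold change of 3.18 (SE 0.06), rank 112.

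Sp100, a permanent component of PML bodies, had 5830, 6609 and 6048 counts in oe-AQP1 and 1131, 1070 and 1249 counts in oe-NC. Its samples were the tightest of the 8 genes in oe-NC relative to their mean. The means were 296.5 ± 3.51 CPM and 58.3 ± 0.547 CPM, with a ratio of 5.09 and a log2 fold change of 2.35 (SE 0.04). Sp140, the chromatin reader with PHD and bromodomain, had 3135, 3491 and 3284 counts in oe-AQP1 and 790, 817 and 879 counts in oe-NC. Its groups were also apart, with means of 159 ± 0.623 CPM and 42.1 ± 2.34 CPM, a ratio of 3.78 and a log2 fold change of 1.92 (SE 0.05).

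Pml, the scaffold of the bodies, had the smallest log2 fold change of the 8 genes apart from Phf11c. It had 5240, 5939 and 5513 counts in oe-AQP1 and 2366, 1891 and 2204 counts in oe-NC. In CPM, oe-NC 1 stood at 120.5 and the other control samples at 103.5 and 103.4. The means of 267.7 ± 2.56 CPM and 109.1 ± 9.88 CPM gave a ratio of 2.45 and a log2 fold change of 1.30 (SE 0.06), which was 1.37 without oe-NC 1.

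Levels per length (TPM, scaled by exon length and library size and computed here from the expected counts) put the 8 genes in one order. In oe-NC, Pml was first at 59.8 ± 7.06 TPM, followed by Sp140 at 48.2 ± 2.25 TPM, Phf11d at 40.3 ± 1.05 TPM and Sp100 at 23.2 ± 0.397 TPM. Sp110 (5.47 ± 0.403 TPM), Phf11a (3.80 ± 0.326 TPM), Phf11c (3.37 ± 0.103 TPM) and Phf11b (1.92 ± 0.188 TPM) were low. No neighbours in this order overlapped between samples. The genes reached from the 18th to the 82nd percentile of the genes tested, so all 8 had counts in the control cells. Phf11b had only 14, 12 and 17 counts there. Whether some of these came from reads shared with Phf11d was not tested.

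In oe-AQP1 the order changed. Phf11d was first at 422 ± 9.78 TPM, at the 98th percentile of all genes tested. Sp140 (189 ± 1.52 TPM), Pml (152 ± 2.06 TPM) and Sp100 (123 ± 1.66 TPM) came next, then Phf11a (78.5 ± 6.60 TPM) and Phf11b (73.1 ± 5.98 TPM), whose samples overlapped. Sp110 (51.6 ± 0.717 TPM) and Phf11c (7.44 ± 0.378 TPM) were last. Phf11b moved from the last place to the sixth, above Sp110 and Phf11c. The order in both groups depends on the scaling by length. By CPM, Sp110 (133.7) stood above Phf11b (26.7) in oe-AQP1. In oe-NC, Sp100 (58.3 CPM) stood above Phf11d (49.2 CPM) and Sp140 (42.1 CPM).

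The share of each copy in its cluster differed between the groups as well. Phf11d made up 81.6% ± 0.487 of the summed Phf11 TPM in oe-NC and 72.6% ± 0.95 in oe-AQP1 (SD, n = 3). By CPM, without scaling by length, its share was 90.7% and 89.3%, so the size of this difference depends on the length scaling. Phf11b made up 3.89% ± 0.381 in oe-NC and 12.6% ± 0.87 in oe-AQP1, and Phf11a 7.70% ± 0.73 and 13.5% ± 0.74. Phf11c went the other way, from 6.82% ± 0.0726 to 1.28% ± 0.107. Among the Sp genes, Sp140 made up 62.7% ± 1.39 of the sum in oe-NC and 52.1% ± 0.328 in oe-AQP1. Sp110 made up 7.12% ± 0.588 and 14.2% ± 0.258, and Sp100 30.2% ± 0.83 and 33.8% ± 0.306. Which Sp gene is highest depends on the length scaling too. By CPM, Sp100 stood above Sp140 in oe-NC (58.3 against 42.1) and in oe-AQP1 (296.5 against 159).

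**Figure D2:**
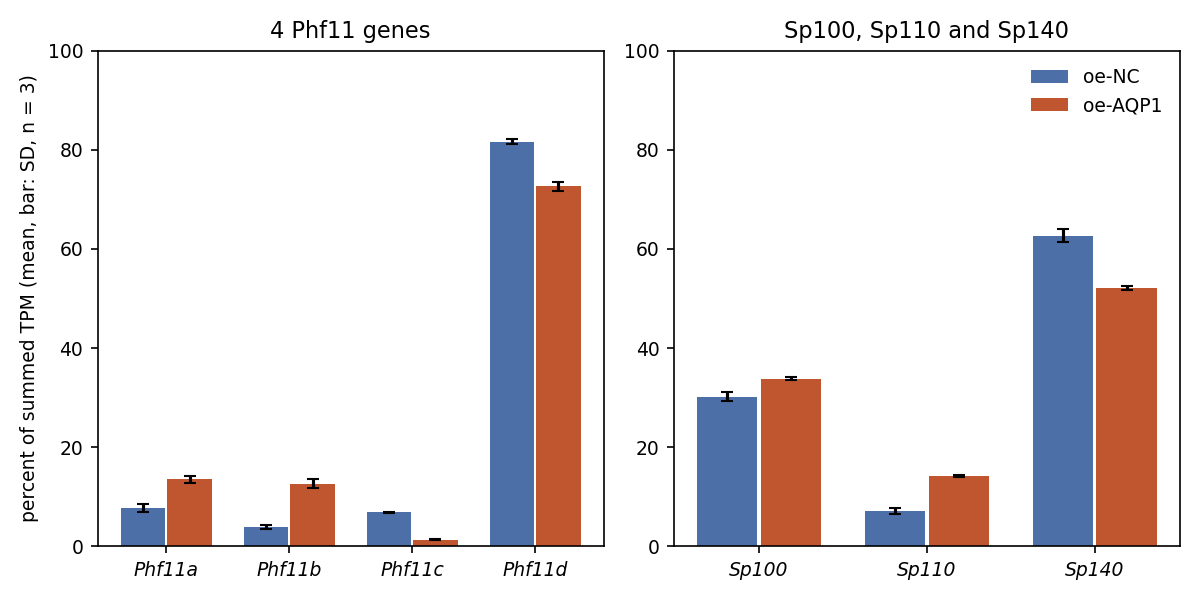
Share of each gene in the summed TPM of its cluster, as the mean of 3 samples with SD bars, on axes from 0 to 100 percent. Phf11d is the tallest bar of its cluster in both groups, while Phf11c shrinks from 6.82% in oe-NC to 1.28% in oe-AQP1 and Sp110 grows from 7.12% to 14.2%.

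Reads from near-identical copies can be divided among them, and the table bears marks of this. Phf11b had fractional counts in 5 of 6 samples and the other Phf11 and Sp genes in all 6, while every Pml count was whole (within 0.005). Of the distinct 100-base stretches in each gene's annotated transcripts, the part found in no other gene was 93.0% for Phf11a, 86.0% for Phf11b, 94.1% for Phf11c, 96.7% for Phf11d and 99.9% for Pml. It was 97.6% for Sp100, 81.7% for Sp110 and 59.0% for Sp140, where 23.4% were shared with genes on the same strand. By this measure of shared sequence, Sp140 had the smallest part of its own among the 8 genes. Summed before the fit, a choice made after the fractional counts had been seen, the 5 Phf11 genes including the Phf11 pseudogene had 10719, 12334 and 11580 counts in oe-AQP1 and 1006, 1012 and 1202 counts in oe-NC, with a log2 fold change of 3.35 (SE 0.05). The 8 genes of the Sp100, Sp110 and Sp140 group with their relatives had 15547, 17335 and 16025 counts in oe-AQP1 and 2798, 2652 and 3037 counts in oe-NC, with a log2 fold change of 2.45 (SE 0.03). Most counts of the first sum are those of Phf11d, so it says little about how reads were divided among Phf11a, Phf11b and Phf11c. Of the stretches of Phf11d, 1.18% are shared with Phf11b and 3.35% with Phf11c, which both had far fewer counts. What part of the Phf11b and Phf11c counts came from shared stretches was not tested, so their fold changes depend on how reads were divided. The second sum includes Csprs, whose shared stretches were not measured.

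Transcripts on the opposite strand overlap the Sp genes, and the sources used here do not say whether strand was used in counting, so reads of a gene and of its antisense partner cannot be told apart. Gm10552, a lncRNA that lies within Sp140 over 8518 bases, rose with 322, 334 and 348 counts in oe-AQP1 and 18, 22 and 16 counts in oe-NC (log2 fold change 4.08, SE 0.21, limma-voom FDR = 1.924e-07). Sp140 itself was at 1.92. Gm57169, which overlaps the start of Sp110 by 762 bases, rose by a log2 fold change of 1.90 (SE 0.07, FDR = 1.015e-08 by limma-voom). Gm17017, which reaches over the end of Sp140 (3986 bases) and the start of Sp100 (904 bases), rose by 2.08 (SE 0.20, FDR = 3.130e-05 by limma-voom).

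Genes whose symbols mark them as relatives of the 8 were taken next, with Csprs added by name. Of 6 such genes, 5 were tested and all 5 rose past both thresholds, as 4.39% of all genes tested did, with a median log2 fold change of 3.259. Apart from Csprs, whose shared stretches were not measured, they share sequence with the 8 genes, so their counts are not independent of them. Csprs, a component of the Sp100 repeat of mouse chromosome 1, had 2487, 2785 and 2561 counts in oe-AQP1 and 230, 198 and 237 counts in oe-NC (log2 fold change 3.48, SE 0.06). Sp140l1 (3.26, SE 0.30) and Sp140l2 (1.92, SE 0.06) are coding relatives whose aligned coding bases were 89.6% and 79.0% identical to those of Sp140. Sp110-ps1, a pseudogene, rose by 1.96 (SE 0.30). The Phf11 pseudogene had 11, 23 and 11 counts against 1, 2 and 0 counts, a ratio of 14.4 with a 95% exact interval of 4.62 to 72.3 that covers counting error only. It shares 61.1% of its 100-base stretches with the lncRNA Gm63585. Under a filter of at least 10 counts in every sample, 3 relatives were left that passed.

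The genes next to the 3 loci were compared to see how far along the chromosome the difference reached. The 4 nearest tested genes on each side were taken, 24 in all, of which 7 rose and 2 fell at an FDR under 0.05 and 6 passed both thresholds (all higher), and their median log2 fold change was 0.045. Of all genes tested, 16.0% rose and 16.6% fell at this FDR, and 4.39% were higher past both thresholds. Beside the Phf11 cluster, Gm63585 (ENSMUSG00000125368; 3.84, SE 0.36) and the overlapping Phf11 pseudogene rose on one side. Setdb2, a histone H3 lysine methyltransferase 4897 bases from Phf11c on the same strand, rose with 893, 1001 and 946 counts in oe-AQP1 and 374, 417 and 494 counts in oe-NC (log2 fold change 1.08, SE 0.07, limma-voom FDR = 2.084e-06). All its counts were whole, and Phf11c beside it was at 1.07. Past these, Rcbtb1 (0.05), Zdhhc20 (-0.13), Cab39l (0.07) and Cdadc1 (0.03) did not pass, and Gm49336 fell by 0.13 (FDR = 0.02903 by limma-voom). The nearest tested genes can be far away, with Zdhhc20 1386549 bases and Gm49336 809872 bases from the cluster.

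Beside the Sp cluster, Gm52955 (3.25, SE 0.29), the lncRNA ENSMUSG00000142292 (2.65, SE 0.36) and the lncRNA Gm53567 (2.18, SE 0.11) rose, all on the Sp110 side. Gm53567 shares 5.02% of the 100-base stretches of Sp110. The pseudogene Gm2427 on the same side did not pass (0.13, SE 0.25). The 4 genes on the Sp100 side did not pass, with A630001G21Rik at -0.19, Cab39 at 0.0024, Itm2c at 0.04 and Gm18180 at 0.57 (SE 0.36). Beside Pml, Stoml1, 3277 bases away, rose with 211, 245 and 185 counts against 134, 126 and 128 counts (log2 fold change 0.64, SE 0.12, limma-voom FDR = 0.001998). Stra6, a membrane receptor for retinol-binding protein, fell by 0.92 (SE 0.06, FDR = 2.185e-06 by limma-voom). Islr2, Islr, Ccdc33, Loxl1, 4930461G14Rik and ENSMUSG00000138697 did not pass and lay between -0.578 and 0.147. Under a filter of at least 10 counts in every sample, 5 of the neighbours passed at an FDR under 0.05.

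**Figure D3:**
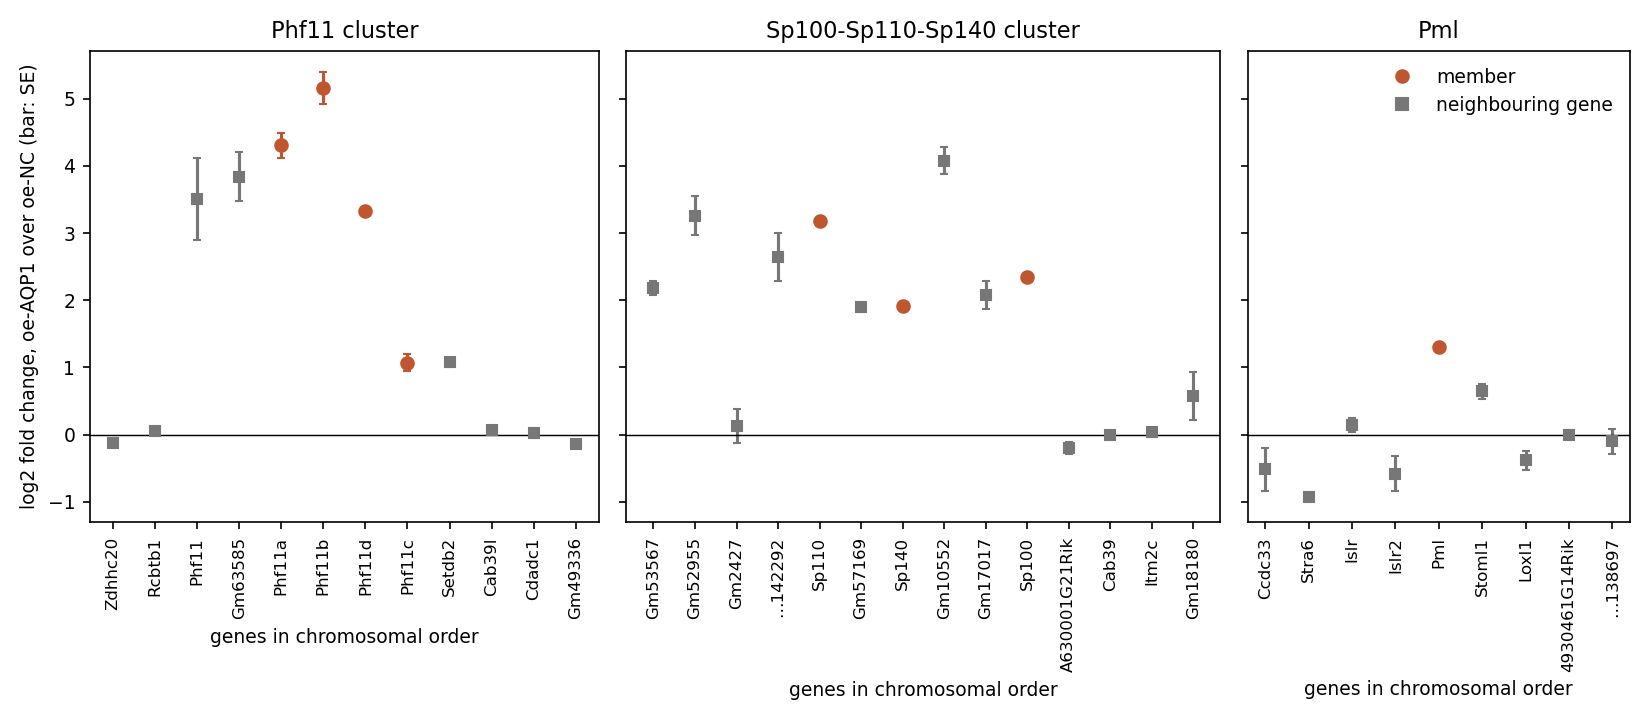
Log2 fold change of oe-AQP1 over oe-NC with its SE for the 8 genes (red circles) and neighbouring tested genes (grey squares), in chromosomal order at the 3 loci and not to scale of distance. The Phf11 cluster ends at Setdb2 (1.08) with genes near 0 beyond it, the 3 antisense lncRNAs within the Sp cluster lie among the Sp genes, and Pml at 1.30 stands above its neighbours.

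Of 18 listed partners of PML bodies, 17 were tested (Sirt1 had at most 5 counts per sample). At an FDR under 0.05, 4 rose (23.5%, against 16.0% of all genes tested) and 3 fell (17.6%, against 16.6%), with a median log2 fold change of 0.069. Of these, 2 rose and 1 fell past both thresholds. Daxx, the histone H3.3 chaperone that PML bodies recruit, rose with 10559, 11958 and 11068 counts in oe-AQP1 and 3326, 2716 and 3115 counts in oe-NC (log2 fold change 1.80, SE 0.05, limma-voom FDR = 1.669e-09). Atrx, which acts with DAXX, was at 0.02 (FDR = 0.7759 by limma-voom). Isg20, an interferon-induced exonuclease found in nuclear bodies, rose with 1970, 2203 and 2064 counts against 635, 614 and 746 counts (1.57, SE 0.05, FDR = 2.652e-09 by limma-voom). Hipk2, a kinase that phosphorylates p53, fell by 1.22 (SE 0.39, FDR = 0.03522 by limma-voom) on 4, 9 and 5 counts against 18, 12 and 11 counts, so its call rests on few reads. Without oe-AQP1 2 the number past the FDR was 4 in place of 7, and without oe-NC 1 it was 10.

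SUMO is the modifier that PML and SP100 carry and bind. Of 22 genes for SUMO, its enzymes, ligases and proteases, 7 passed at an FDR under 0.05, all of them higher (31.8%, against 16.0% of all genes). The median log2 fold change was 0.062. The ligase gene Pias3 was the lowest at -0.15 (FDR = 0.08289 by limma-voom). The number past the FDR was 12 without oe-NC 1, 4 without oe-AQP1 2 and 4 with no filter on low counts.

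Other genes with SAND domains or with a PHD finger and a bromodomain, the modules of the Sp family, were close to 0. Of 15 such genes 3 rose (20%, against 16.0% of all genes) and 1 fell (6.67%, against 16.6%) at an FDR under 0.05, and the median log2 fold change was 0.027. Trim24 was the highest (0.38, FDR = 8.362e-05 by limma-voom) and Zmynd8 the lowest (-0.20, FDR = 0.03591 by limma-voom). Of 22 genes with a numbered PHF symbol other than Phf11, 16 were tested, of which 3 fell at an FDR under 0.05 (18.8%, against 16.6% of all genes), with a median of 0.011. Phf10, a subunit of the SWI/SNF remodelling complex, was the lowest (-0.25, FDR = 4.643e-04 by limma-voom) and Phf21a the highest (0.14, FDR = 0.05142 by limma-voom). These small numbers depended on single libraries. For the SAND and bromodomain genes the number past the FDR was 10 without oe-NC 1 and 2 without oe-AQP1 2 or oe-AQP1 3. For the PHF genes it was 5 without oe-NC 1 and 1 without oe-AQP1 1, oe-AQP1 3 or oe-NC 2.

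Genes that carry the type I interferon signal were listed because PML and SP100 are known targets of it. Of 10 genes 7 rose (against 16.0% of all genes) and 1 fell (against 16.6%) at an FDR under 0.05, and 5 rose past both thresholds (against 4.39%), with a median log2 fold change of 1.054. Ifnb1, the ligand interferon beta, rose with 264, 288 and 277 counts in oe-AQP1 and 3, 6 and 5 counts in oe-NC (5.72, SE 0.30, FDR = 2.598e-07 by limma-voom). Irf7 (1.97, SE 0.03) and Irf1 (1.43, SE 0.06), transcription factors of the response, rose too, and the receptor gene Ifnar2 rose by 0.27 (SE 0.04). Jak1, a receptor kinase, fell by 0.11 (SE 0.04, FDR = 0.04574 by limma-voom), while Ifnar1 (-0.08) and Tyk2 (-0.11) did not pass. Whether these genes had a part in the levels of the PHF11 and nuclear body genes was not tested.

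**Figure D4:**
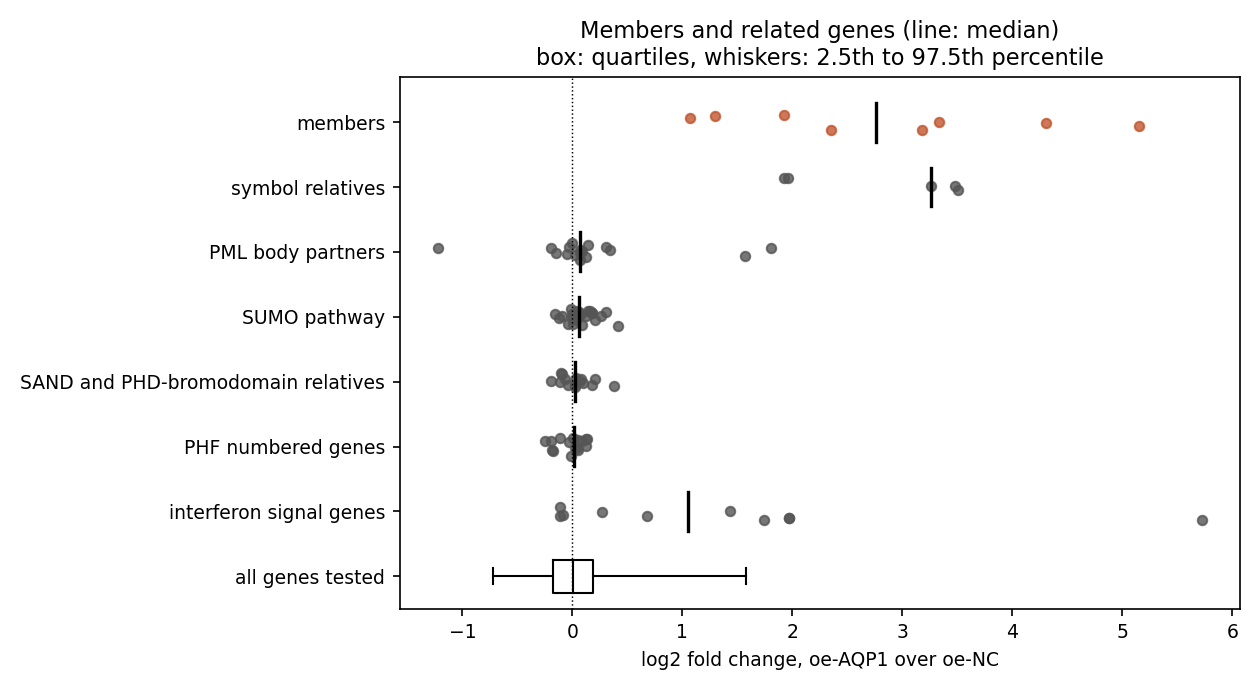
Log2 fold change of oe-AQP1 over oe-NC for the 8 genes (members, red), for 6 lists of related genes (grey) and for all 15522 genes tested (box), with a line at each median. Medians of the PML body partners, SUMO, SAND and PHF lists lie near 0, and those of the 8 genes (2.763), their symbol relatives (3.259) and the interferon signal genes (1.054) lie to the right of 0.

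The genes whose profile over the 6 samples was most like that of Phf11d, Sp100 and Pml were found by the Euclidean distance between log2 CPM values centred on each gene's mean, among 15266 genes with a mean of at least 10 counts. The distance is small for genes with the same fold change and the same scatter. Nearest to Phf11d were Zbp1 (0.086), the pseudogene Gvin-ps7 (0.122) and Tgtp2 (0.142). Zbp1, a sensor of Z-form nucleic acids, had 10441, 11797 and 10744 counts in oe-AQP1 and 991, 1009 and 1131 counts in oe-NC. Nearest to Sp100 were Ifi204 (0.087), Psmb10 (0.105), a subunit of the immunoproteasome, and Parp14 (0.111). Nearest to Pml were Tap2 (0.056), the peptide transporter of antigen presentation, the lncRNA ENSMUSG00000121510 (0.083) and Nfkbie (0.118). Tap2 had 124.5 CPM in oe-NC 1 and 107.6 and 109.4 CPM in the other control samples. The oe-NC 1 value thus lay above the others as in Pml, which the choice of nearest profiles favours.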

How the data were processed

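The authors deposited expected counts, estimated reads per gene without scaling between samples, for 78298 genes in 6 samples, with 2 columns of group means that were not used. The study's methods name GRCm39, while the submitters' processing notes name fastp, HISAT2, featureCounts, Subread and GRCm38 (mm10). The counter that gave fractional values is not given in the sources used here. Positions and lengths came from GENCODE M39, in which 78168 identifiers were found.

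Expected counts were rounded and filtered with filterByExpr by group, which left 15522 genes, and scaled by TMM (factors 0.993 to 1.006). The limma-voom pipeline was used (limma 3.58.1, edgeR 4.0.16, R 4.3.3) on all 6 samples with group as the only term, with the thresholds of the study's methods (FDR under 0.05 and a log2 fold change beyond 1 in either direction). The study also left interferon-stimulated genes out of its list of changed genes; they were kept here. On simulated data with 15475 genes, 200 of 200 changed genes were recovered. CPM used TMM-scaled libraries. Coding sequences were built from GENCODE M39 and aligned with mafft 7.526.

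The genes described and the gene lists were chosen with earlier results of these data known. Named were the 8 genes, their symbol relatives with at least 10 counts in a sample, the neighbours, the genes of other lists past both thresholds (at most 3 in each direction) or otherwise the highest and lowest, and the 3 nearest profiles of Phf11d, Sp100 and Pml. Some genes that this rule names are not reported here. The other values in the lists, and the antisense genes, were named after their values were seen. Depth limits genes with few counts. The fits tried beside it used edgeR's quasi-likelihood framework, DESeq2 1.42.0, sample quality weights, other scalings and filters, a replicate block and leaving out each sample.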

Additional observations from a re-analysis of the deposited data

How the results depend on the processing

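All 8 genes were called higher under each of the 15 alternative fits and under the FDR alone, and no result reversed. Their log2 fold changes ranged over these settings from 4.24 to 4.37 (Phf11a), 5.09 to 5.23 (Phf11b), 1.02 to 1.10 (Phf11c), 3.29 to 3.36 (Phf11d), 2.33 to 2.36 (Sp100), 3.14 to 3.21 (Sp110), 1.89 to 1.96 (Sp140) and 1.26 to 1.37 (Pml). No scaling moved the median of all genes beyond 0.015. Of all genes tested, 812 were called, 681 higher and 131 lower. With at least 10 counts in every sample these were 482, 416 and 66, since genes low in a group were not tested. Without the filter 204 were lower, and 5050 passed the FDR alone. Leaving out each sample in turn gave 765 to 891 called, 661 to 729 higher and 104 to 162 lower, with all 8 genes called each time. Numbers past the FDR when samples were left out were 4 to 12 for the SUMO list (7 with all samples), 4 to 10 for the PML body partners (7), 2 to 10 for the SAND and bromodomain genes (4), 7 to 8 for the interferon signal genes (8), 5 for the symbol relatives (5), 1 to 5 for the PHF genes (3) and 8 to 9 for the neighbours (9). Without the filter the SUMO list had 4 and the PHF genes 1. DESeq2 gave 1 for the PHF genes. Sample quality weights gave 7 for the SAND and bromodomain genes and 5 for the PHF genes. At least 10 counts in every sample left 3 symbol relatives and 5 neighbours. The cause of these shifts was not tested. By CPM without length, Phf11d made up 89.3% of its cluster in oe-AQP1 and 90.7% in oe-NC, since its exon length is greater than that of Phf11a and Phf11b.

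With the replicate number as a block, 786 genes were called, 666 higher and 120 lower, and the 8 genes were among them. The labels do not tie same-numbered samples to each other, and their deviations from the group means correlated by 0.015, -0.02 and -0.073, so the numbers were not taken as pairs. Of the 3 numbers, 1 correlated best with itself.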
